A study of Mus musculus with 2 samples.

Results

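The genes described are 7 tubulin isotypes and nestin, taken by symbol from the 27998 genes counted in both libraries, and all 8 were found. Tubb3, Tubb2a, Tubb2b and Tuba1a are the isotypes that the nervous system uses most and are called the neural isotypes. Tuba1b, Tubb5 and Tubb4b are made by most dividing cells and are called the general isotypes. Nes encodes nestin. The cells were of the male mouse embryonic stem cell line E14, able to form every tissue of the embryo, grown on gelatin without feeder cells in 2i/LIF medium, which holds them in the naive state. The treated culture received Idoxuridine, a thymidine analogue with iodine that cells insert into new DNA, for 24 h at 10 µM by the treatment label (a protocol field gives 10 mM). The other culture received the solvent DMSO for 24 h. The strain label of both reads C57BL/6, and no genetic change is listed for either.

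Each treatment had 1 10x Genomics 3′ library, so differences are between these 2 libraries, with no replicate check and no test. The Idoxuridine library held 742 cells and 30454626 unique molecular identifiers (UMIs, each marking 1 captured transcript), and the DMSO library held 811 cells and 40818344 UMIs. The median cell had 37425 UMIs in the Idoxuridine library and 44502 in the DMSO library. The share of UMIs from nuclear-retained RNAs such as Malat1 had a median of 0.509% in Idoxuridine cells and 0.319% in DMSO cells. All 6 defining embryonic stem cell markers were detected in both libraries and summed to 3179 counts per 1000000 UMIs (CPM) with Idoxuridine and 4296 CPM with DMSO. Intervals in parentheses are 95% and cover counting error only.

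Microtubules are built from heterodimers of 1 alpha and 1 beta tubulin. Mammals carry several genes for each, whose proteins differ mostly in the acidic tail that faces the outside of the microtubule and is modified by added glutamates. Mutations in human TUBB3, TUBB2A, TUBB2B and TUBA1A cause brain malformations. Tubulin mRNA is also controlled by its own product: when free tubulin is in excess, the adaptor TTC5 binds the first amino acids of a new tubulin chain on the ribosome, and the mRNA is degraded. Nestin is an intermediate filament protein of neural progenitors and of several other dividing cell types. Tubb3 and Nes are widely used as markers of neurons and of neural progenitors.

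The start of each coding sequence, and the end of the beta ones, are shown because the start carries the element that TTC5 reads and the end encodes the tail that sets the isotypes apart. The first 24 coding bases are given 5′ to 3′ from the GENCODE M21 annotation on GRCm38, with the first 4 codons in capitals; in Tuba1a and Tuba1b they are joined across an intron.
Tubb3: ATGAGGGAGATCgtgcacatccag
Tubb2a: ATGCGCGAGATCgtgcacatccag
Tubb2b: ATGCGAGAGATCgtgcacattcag
Tuba1a: ATGCGTGAGTGCatctccatccat
Tuba1b: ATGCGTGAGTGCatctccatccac
Tubb5: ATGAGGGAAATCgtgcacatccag
Tubb4b: ATGAGGGAGATCgtgcacctgcag
The first 4 codons encode the same amino acids in all 5 beta isotypes, in part through different codons, and both alpha genes share theirs. The last 60 coding bases of the beta isotypes before the stop codon follow, with the glutamate codons GAA and GAG in capitals.
Tubb3: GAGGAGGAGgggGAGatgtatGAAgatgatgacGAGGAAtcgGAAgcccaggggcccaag
Tubb2a: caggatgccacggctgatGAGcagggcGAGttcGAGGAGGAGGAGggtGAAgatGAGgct
Tubb2b: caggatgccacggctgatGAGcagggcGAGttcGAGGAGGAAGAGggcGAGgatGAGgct
Tubb5: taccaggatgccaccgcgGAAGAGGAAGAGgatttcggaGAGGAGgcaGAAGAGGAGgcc
Tubb4b: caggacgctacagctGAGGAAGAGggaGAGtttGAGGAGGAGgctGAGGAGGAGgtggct
These codons numbered 8 to 10 of the last 20 in the 5 beta isotypes. Over the whole coding sequence Tuba1a and Tuba1b were 98.3% identical and Tubb2a and Tubb2b 96.5%, while the other beta pairs were 81.5% to 84.6% identical. Tubb2a and Tubb2b neighbour each other on chromosome 13 (34074274 to 34078007 and 34126748 to 34130466, minus strand), and Tuba1a and Tuba1b on chromosome 15 (98949837 to 98953703 and 98931425 to 98934565, minus strand). Tubb3 lies on chromosome 8 (123411424 to 123422015, plus strand), Tubb5 on chromosome 17 (35833921 to 35838306, minus strand), Tubb4b on chromosome 2 (25222160 to 25224702, minus strand) and Nes on chromosome 3 (87971078 to 87980451, plus strand). Of the 90-base windows in the last 500 transcript bases, where 3′ reads fall, 69.8% in Tuba1b, 52.1% in Tuba1a, 25.8% in Tubb2a and 20.4% in Tubb4b also occur elsewhere in the annotated transcripts. No such window was found in Tubb3, Tubb2b, Tubb5 or Nes. Tubb3 lies inside the longer gene Gm20388, which shares no exon base with it and had 0 UMIs, and Tubb4b shares 121 exon bases with Fam166a on the other strand, which had 4 UMIs with Idoxuridine and 8 with DMSO. How the authors' counting treated such reads is not given in the sources used here, so the split between Tuba1a and Tuba1b is the least certain of the values that follow.

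Of the neural isotypes, Tubb3 was higher in the Idoxuridine library and Tubb2b was lower, so the group did not move as one. A gene was called higher or lower where its log2 ratio of Idoxuridine over DMSO was at least 0.5 in size and the Poisson intervals of the levels did not overlap. Tubb3, the beta isotype used as a neuronal marker, had 191 CPM (186 to 196; 5812 UMIs) in the Idoxuridine library and 127 CPM (123 to 130; 5170 UMIs) in the DMSO library. That is 1.51-fold, or 0.59 on the log2 scale (0.54 to 0.65). Tubb2b, needed for neuron migration in the cortex, had 393 CPM (386 to 400) with Idoxuridine and 574 CPM (567 to 581) with DMSO, a log2 ratio of -0.55 (-0.58 to -0.51). Its neighbour Tubb2a lay the other way, at 79.1 CPM (75.9 to 82.3) with Idoxuridine and 56.5 CPM (54.2 to 58.8) with DMSO, a log2 ratio of 0.49 (0.40 to 0.57) that ends just under the 0.5 needed for a call. Tuba1a, the main alpha isotype of growing neurons, had 581 CPM in the Idoxuridine library and 470 CPM in the DMSO library, a log2 ratio of 0.30 (0.27 to 0.33). The 4 neural genes summed to 1244 CPM with Idoxuridine and 1227 CPM with DMSO, a log2 ratio of 0.02 whose interval reached 0.

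The general isotypes were the most abundant members in both libraries and none passed the size for a call. Tuba1b had 1971 CPM in the Idoxuridine library and 2451 CPM in the DMSO library, a log2 ratio of -0.31. For Tubb5, the main beta tubulin of dividing cells, the levels were 1786 CPM with Idoxuridine and 2033 CPM with DMSO, a log2 ratio of -0.19. Tubb4b, a beta isotype of spindles and cilia, was nearly level at 1121 CPM with Idoxuridine and 1168 CPM with DMSO. Their sum was 4879 CPM in the Idoxuridine library and 5652 CPM in the DMSO library, a log2 ratio of -0.21 (-0.22 to -0.20).

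Nes had the largest ratio of the members from the fewest UMIs. It had 13.6 CPM (12.3 to 15.0; 414 UMIs) in the Idoxuridine library and 4.61 CPM (3.97 to 5.31; 188 UMIs) in the DMSO library, 2.95-fold or a log2 ratio of 1.56 (1.31 to 1.82). Counted together, 2 of the 8 members were higher by at least 0.5 log2 with separate intervals, against 18.8% of the 10380 genes with at least 200 UMIs, and 1 was lower, against 4.20%. The median log2 ratio was 0.12 over the members and 0.09 over all those genes, so as a set the members lay close to the background. Scaling by edgeR's TMM factors lowered every ratio by 0.21, and scaling by the median of ratios lowered it by 0.25. Tubb3 then had log2 ratios of 0.38 and 0.34 and was no longer called, Tuba1b passed the size for a lower call at -0.52 and -0.57, and no single member changed sign. The neural sum did change sign, to -0.19 and -0.23.

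**Figure D1:**
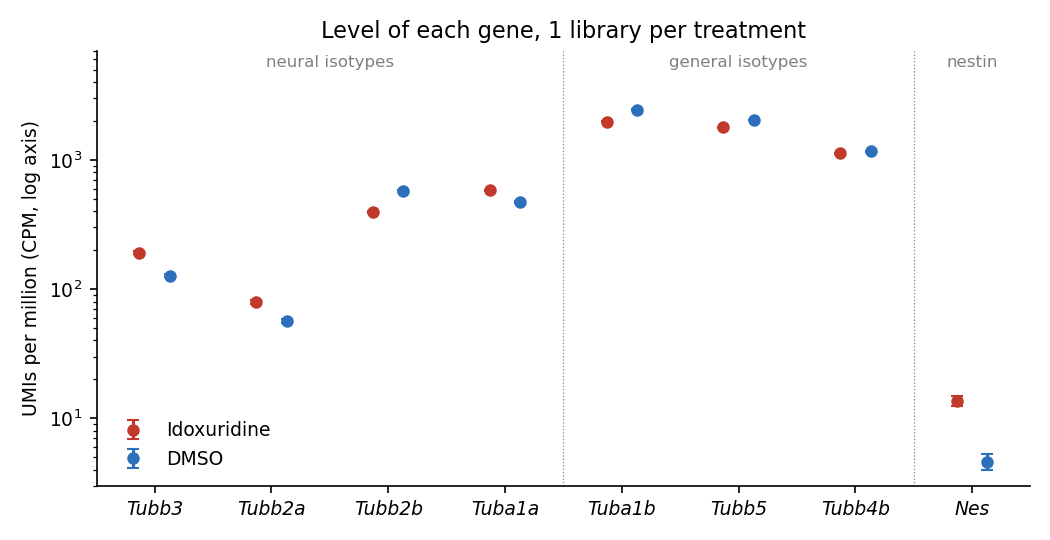
Level of each of the 8 genes in CPM on a log axis, with exact Poisson 95% intervals, in the Idoxuridine library (left point of each pair) and the DMSO library (right point). Nes and Tubb3 stand higher in the Idoxuridine library and Tubb2b lower, while the general isotypes Tubb5 and Tubb4b lie close together.

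The make-up of the tubulin pool, which does not depend on the scaling of the libraries, differed between them. The 7 genes together gave 6122 CPM in the Idoxuridine library and 6880 CPM in the DMSO library, a log2 ratio of -0.17 that was -0.38 with TMM and -0.42 with the median of ratios. They held 88.9% of all alpha and beta tubulin UMIs with Idoxuridine and 90.5% with DMSO. Tubb3 made up 3.12% of the pool with Idoxuridine and 1.84% with DMSO, and Tuba1a 9.48% with Idoxuridine and 6.84% with DMSO. Tubb2b took 6.42% of the pool in the Idoxuridine library and 8.34% in the DMSO library. The neural isotypes were 20.3% of the pool with Idoxuridine and 17.8% with DMSO. Per general UMI there were 0.255 neural UMIs with Idoxuridine and 0.217 with DMSO, a log2 ratio of 0.23 (0.21 to 0.25).

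That shift rested on the alpha genes, where Tuba1a was not the only isotype with a higher share. Tuba1c, an alpha isotype in neither group, had 354 CPM with Idoxuridine and 278 CPM with DMSO, a log2 ratio of 0.35. It held 11.4% of all alpha tubulin UMIs with Idoxuridine and 7.84% with DMSO, while the shares of Tuba1b and Tuba4a were lower with Idoxuridine. Tuba1a gave 0.295 UMIs per Tuba1b UMI in the Idoxuridine library and 0.192 in the DMSO library, a log2 ratio of 0.62, and without Tuba1a the neural to general ratio differed by only 0.02. Among the beta isotypes alone the ratio was 0.228 with Idoxuridine and 0.236 with DMSO, a log2 ratio of -0.05, the opposite direction. Inside the 5 beta genes, Tubb2b and Tubb5 had lower shares with Idoxuridine, with differences of -3.49 and -1.32 percentage points. Tubb3, Tubb4b and Tubb2a had higher shares, by 2.15, 1.88 and 0.79 points. There were 0.486 Tubb3 UMIs per Tubb2b UMI in the Idoxuridine library and 0.221 in the DMSO library, a log2 ratio of 1.14. Leaving Tubb2b out of the neural group brought the neural to general log2 ratio to 0.59.

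**Figure D2:**
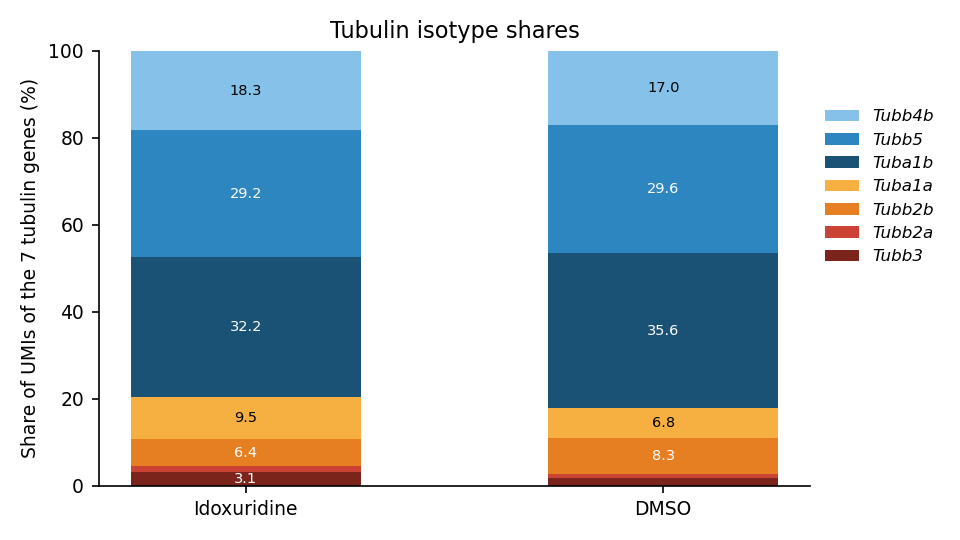
Share of each isotype among the UMIs of the 7 tubulin genes, in percent, as stacked bars for the Idoxuridine library (left) and the DMSO library (right). Tuba1b, Tubb5 and Tubb4b make up most of the pool in both, Tubb3 is 3.12% with Idoxuridine and 1.84% with DMSO, and Tubb2b is 6.42% with Idoxuridine and 8.34% with DMSO.

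The spread between cells was compared after thinning each cell to 23500 UMIs, which kept 648 of the 742 Idoxuridine cells and 764 of the 811 DMSO cells. The Fano factor divides a gene's variance over cells by its mean, and pure counting error gives 1. Tubb3 had the largest difference of the members, with a Fano factor of 6.37 in Idoxuridine cells at a mean of 4.65 UMIs and 2.46 in DMSO cells at a mean of 2.99 UMIs. Its log2 ratio of 1.37 was above that of 99.8% of the 7316 genes compared, and was 0.74 without the tertile of cells highest in nuclear-retained RNA in each library. Tuba1a followed with Fano factors of 4.84 with Idoxuridine and 2.79 with DMSO, a log2 ratio of 0.79, and Tubb2a with 1.91 with Idoxuridine and 1.39 with DMSO. Tubb2b had the higher Fano factor in Idoxuridine cells, 2.48 against 2.01 in DMSO cells, although its mean was lower there, at 9.27 UMIs against 13.7 UMIs. The corrected CV2, which is the variance less the mean, divided by the squared mean, gave another order. Its log2 ratios were 1.24 for Tubb3, 1.12 for Tubb2b, 0.77 for Tuba1a and 0.76 for Tubb2a. They were 0.55 for Tuba1b, 0.44 for Tubb5 and 0.12 for Tubb4b.

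The general isotypes differed less in spread. Fano factors were 4.51 with Idoxuridine and 3.94 with DMSO for Tuba1b, 4.29 with Idoxuridine and 3.75 with DMSO for Tubb5, and 5.09 with Idoxuridine and 4.92 with DMSO for Tubb4b. Genes with a DMSO mean within 1.5-fold of that of Tubb5 had median Fano factors of 2.97 in Idoxuridine cells and 2.52 in DMSO cells. For Tuba1b, Tubb5 and Tubb4b, genes of like mean had median log2 Fano ratios of 0.19, 0.19 and 0.18. Their own ratios were 0.19, 0.19 and 0.05, so these 3 lay close to or below genes of their level. The neural isotypes lay above theirs, from Tubb2b at 0.30 against 0.16 to Tubb3 at 1.37 against 0.098. The Fano factor was higher in Idoxuridine cells for 7 of the 7 tubulins, against 79.2% of all genes compared, and at least 0.5 log2 higher for 2 of them, Tubb3 and Tuba1a, against 2.54%. Nes was too sparse for a Fano comparison, with means of 0.323 UMI in Idoxuridine cells and 0.108 UMI in DMSO cells. The order of the members changed with depth handling: on unthinned UMIs only Tubb3, Tubb2a and Tuba1a kept the higher Fano factor with Idoxuridine.

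**Figure D3:**
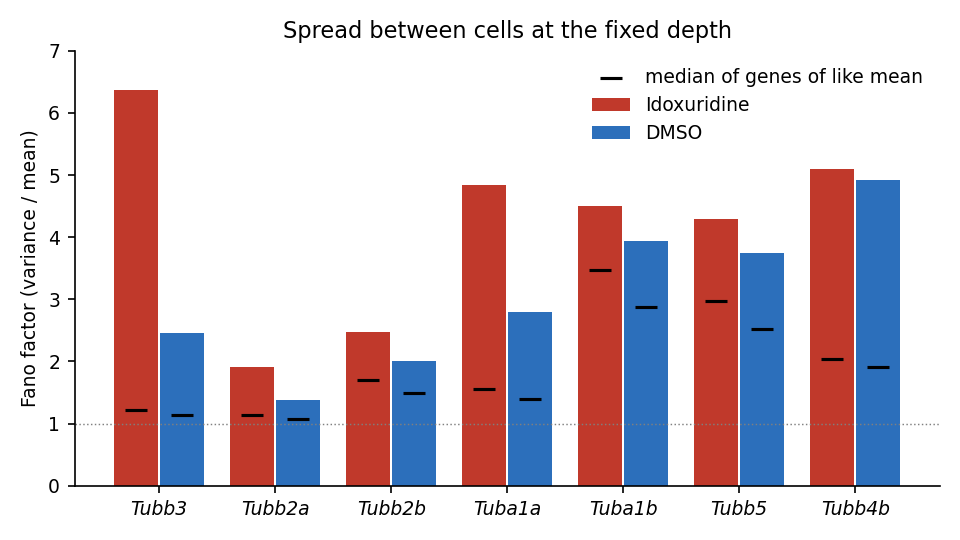
Fano factor of UMIs per cell at 23500 UMIs for the 7 tubulins in Idoxuridine cells (left) and DMSO cells (right), with black lines for the median of genes of like mean and a dotted line at 1. Tubb3 reaches 6.37 with Idoxuridine and 2.46 with DMSO, while Tubb4b is 5.09 with Idoxuridine and 4.92 with DMSO.

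The wider spread of Tubb3 lay in its highest cells. The median cell had 3 Tubb3 UMIs in the Idoxuridine library and 2 in the DMSO library, while the 95th percentile was 14.7 with Idoxuridine and 8 with DMSO. The highest cell had 48 in the Idoxuridine library and 19 in the DMSO library. More than 10 Tubb3 UMIs were found in 68 of 648 Idoxuridine cells (10.5%, 8.24% to 13.1%) and 18 of 764 DMSO cells (2.36%, 1.40% to 3.70%). More than 20 were found in 12 Idoxuridine cells and no DMSO cell, where a count of 0 allows a share of up to 0.393% (taken as 3 counts of the 764 cells). The 5% of cells with the most Tubb3 held 24.2% of its UMIs in the Idoxuridine library and 17.5% in the DMSO library. Most cells of both libraries had some Tubb3, 88.2% with Idoxuridine and 84.8% with DMSO. Before thinning the shares were 91.4% with Idoxuridine and 91.2% with DMSO.

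Most cells with Nes at the fixed depth had a single UMI of it. At the fixed depth 24.7% of Idoxuridine cells and 8.82% of DMSO cells had a Nes UMI, against 35.7% of Idoxuridine cells and 17.5% of DMSO cells before thinning. In 1 random thinning no cell had more than 5. Of the cells, 127 with Idoxuridine and 54 with DMSO had exactly 1 Nes UMI. Another 25 Idoxuridine cells and 9 DMSO cells had 2, and 11 Idoxuridine cells and 4 DMSO cells had 3 to 5. No cell type lacking Nes was set apart in these libraries, so the share that free RNA gives was not measured. Nes and Tubb3 were found together in 139 of 648 Idoxuridine cells (21.5%), where the product of their separate shares is 22.0%, and in 62 of 764 DMSO cells (8.12%), where it is 7.46%. Idoxuridine cells with Nes averaged 4.53 Tubb3 UMIs and those without it 4.66, while DMSO cells with Nes averaged 3.55 and those without it 3.02.

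**Figure D4:**
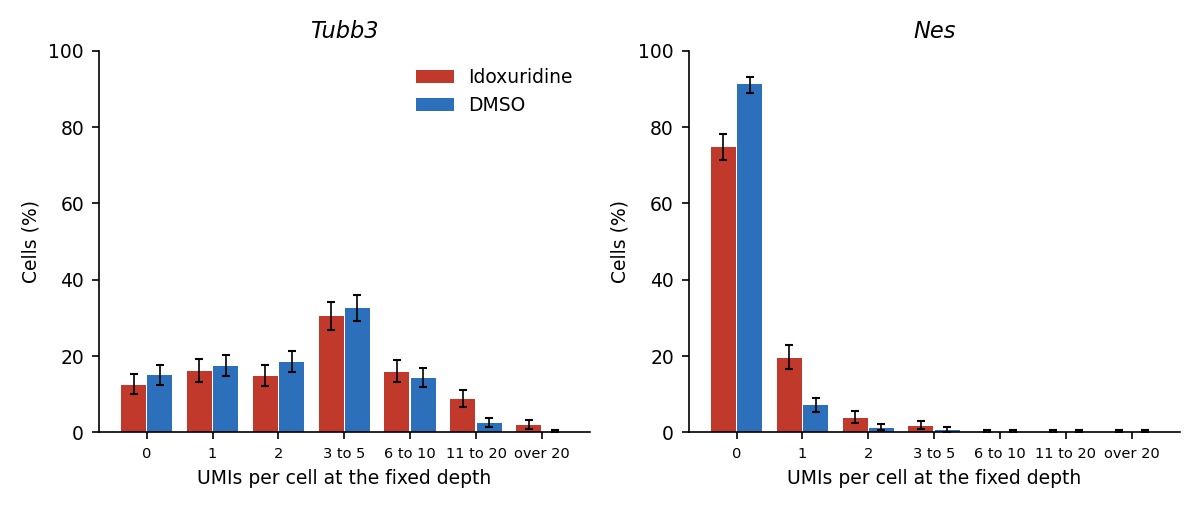
Cells by UMIs per cell of Tubb3 and Nes after 1 random thinning to 23500 UMIs, in percent of cells with exact binomial 95% intervals, for Idoxuridine (left bar) and DMSO (right bar). For Tubb3, 10.5% of Idoxuridine cells and 2.36% of DMSO cells are above 10 UMIs. For Nes, 74.8% of Idoxuridine cells and 91.2% of DMSO cells have none.

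The neural share of the tubulin pool was also wider among Idoxuridine cells. Its median was 19.5% in Idoxuridine cells and 17.6% in DMSO cells, and the 5th to 95th percentiles spanned 10.5% to 34.8% with Idoxuridine and 10.95% to 27.0% with DMSO. Its variance was 5.18 times that of binomial counting with Idoxuridine and 2.84 times with DMSO. The ratio stayed higher in Idoxuridine cells with each neural isotype left out in turn, from 4.15 with Idoxuridine and 2.63 with DMSO without Tubb3 to 6.08 with Idoxuridine and 2.998 with DMSO without Tubb2b.

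Along the cell cycle the isotypes fell into separate patterns. When cells of each library were split into tertiles by summed UMIs of 53 G2/M genes, Tubb4b went with the list, at means of 17.5, 26.6 and 34.5 UMIs from the lowest to the highest tertile with Idoxuridine and 18.4, 27.0 and 36.7 with DMSO. Tubb5 and Tuba1b followed it less steeply. Tubb3 differed between the libraries, with means of 5.19, 4.22 and 4.47 UMIs with Idoxuridine and 2.48, 2.94 and 3.79 with DMSO, so its log2 ratio was 1.06 in the lowest tertile, 0.52 in the middle one and 0.24 in the highest. Tubb2b was lower with Idoxuridine in every tertile, at -0.53, -0.52 and -0.62, and the Nes log2 ratios were 1.40, 1.56 and 1.77. Neither Tubb3 nor Tubb2b showed such a trend across tertiles of pluripotency or p53 target genes, where their log2 ratios were 0.52 to 0.71 and -0.62 to -0.51. The Nes log2 ratios were 1.06, 1.45 and 2.25 from the lowest to the highest pluripotency tertile. Few Nes UMIs lie behind these ratios, with DMSO means of 0.149, 0.110 and 0.0787 UMI per cell in the G2/M tertiles and likewise in the pluripotency tertiles.

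**Figure D5:**
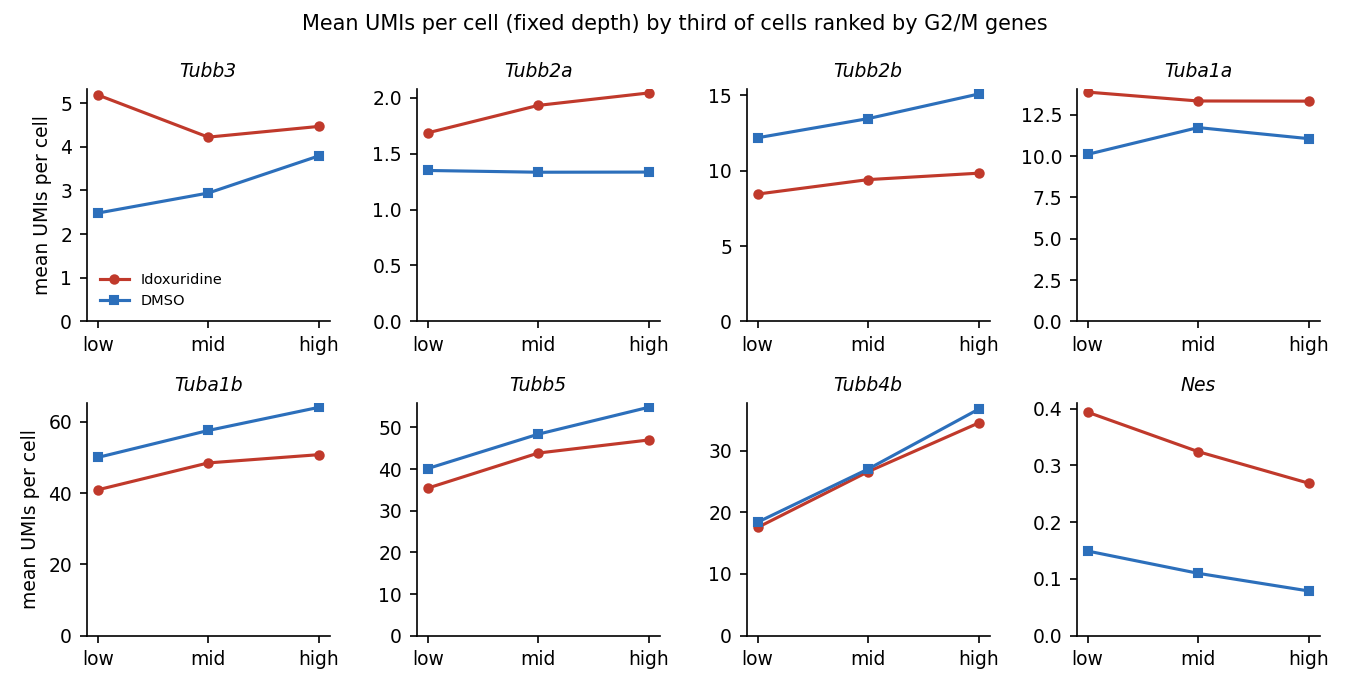
Mean UMIs per cell at 23500 UMIs for the isotypes and Nes in the lowest, middle and highest tertile of cells by G2/M gene UMIs, for Idoxuridine (circles) and DMSO (squares), each panel with its own axis from 0. Tubb4b climbs in both libraries, to 34.5 with Idoxuridine and 36.7 with DMSO, while Tubb3 is 5.19 with Idoxuridine and 2.48 with DMSO in the lowest tertile.

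The Tubb3 difference moved with the share of nuclear-retained RNA, which was also higher in Idoxuridine cells. When cells of both libraries were pooled into 3 bins of that share, the Tubb3 log2 ratio was 0.11 in the lowest bin (132 Idoxuridine and 386 DMSO cells), 0.42 in the middle one and 0.68 in the highest (386 Idoxuridine and 132 DMSO cells). The Nes ratios were 1.56, 1.70 and 1.02, and those of Tubb2b were -0.64, -0.49 and -0.68. In bins of UMIs per cell, from low to high, Tubb3 had log2 ratios of 0.89, 0.61 and 0.46. Without the tertile of cells highest in this share in each library, the Tubb3 log2 ratio was 0.49, just under the size for a call. Whether that share has a part in the Tubb3 result was not tested.

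Correlations between members across cells were highest among the general isotypes in both libraries. Tubb5 and Tuba1b had r = 0.60 over 648 Idoxuridine cells and 0.60 over 764 DMSO cells, and Tubb5 and Tubb4b had 0.56 with Idoxuridine and 0.61 with DMSO. Tuba1b and Tubb4b had 0.44 with Idoxuridine and 0.52 with DMSO. Pairs that include a neural isotype or Nes were weaker. Some of them differed between the libraries, such as Tuba1a and Tuba1b, with 0.12 in Idoxuridine cells and 0.25 in DMSO cells. Others were close, such as Tubb2b and Tubb5, with 0.36 in Idoxuridine cells and 0.39 in DMSO cells. The gene most like Tubb5 outside the tubulins was Cdk1, the mitotic kinase, with r = 0.48 in Idoxuridine cells and 0.49 in DMSO cells, among genes that reach 0.2 in both libraries. No gene reached 0.2 in both libraries for Tubb3 or for Nes, and the nearest to Tubb3 was Tuba1a, with 0.19 in Idoxuridine cells and 0.14 in DMSO cells. Cells of 1 library share its depth and capture, so these values are descriptions.

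Among the other tubulin and folding genes with enough UMIs, Tubb6, Tuba4a and Arl2 were called. Tubb6, a beta isotype of muscle and non-neural cells, had 200 CPM in the Idoxuridine library and 101 CPM in the DMSO library, a log2 ratio of 0.98. Tuba4a, the alpha isotype encoded without the final tyrosine, was lower at 183 CPM with Idoxuridine and 322 CPM with DMSO, a log2 ratio of -0.81. Of 21 folding and assembly factors with enough UMIs, 0 were higher and 1 was lower, beside 18.8% higher and 4.20% lower over all genes. The lower one was the small GTPase Arl2, at 27.0 CPM with Idoxuridine and 38.7 CPM with DMSO. Ttc5, the adaptor of tubulin mRNA decay, had 48.6 CPM with Idoxuridine and 62.6 CPM with DMSO and was not called, nor were the other 3 genes of that list. Under TMM scaling 2 of the 21 folding factors and 1 of these 4 genes were lower, beside 12.2% of all genes.

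Of 11 tubulin-modifying enzymes with enough UMIs, 4 were higher, Ttll4, Ttll5, Agbl5 and Hdac6, and 0 were lower, beside 18.8% higher and 4.20% lower over all genes. The tubulin deacetylase Hdac6 had 34.7 CPM with Idoxuridine and 24.4 CPM with DMSO. Under TMM scaling 1 of the 11 was higher and 1 lower, beside 12.1% higher and 12.2% lower over all genes. Among 26 microtubule-associated and destabilising proteins, 5 were higher and 2 lower, beside 18.8% higher and 4.20% lower over all genes. Mapre3, 1 of the 5, met the UMI minimum in part through the Idoxuridine library, with 144 UMIs there and 69 with DMSO. The lower genes were both stathmins, which bind free tubulin dimers: Stmn1 had 498 CPM with Idoxuridine and 787 CPM with DMSO, and Stmn2 had 220 CPM with Idoxuridine and 532 CPM with DMSO.

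Besides Nes, other intermediate filament genes were higher in the Idoxuridine library. Of 13 other filament and lamin genes with enough UMIs, 8 were higher and 1 lower, beside 18.8% higher and 4.20% lower over all genes. The median log2 ratio of the 13 was 1.73, against 0.09 over all genes. Under TMM scaling 8 were higher and 1 lower too, beside 12.1% higher and 12.2% lower over all genes. The neurofilament light chain Nefl had 124 CPM with Idoxuridine and 16.8 CPM with DMSO. Prph, the peripherin of peripheral neurons, had 22.4 CPM with Idoxuridine and 0.882 CPM with DMSO, and the simple-epithelium keratin Krt19 had 31.9 CPM with Idoxuridine and 1.86 CPM with DMSO. Prph, Krt19, Des, Nefm and Nefh had fewer than 200 UMIs in the DMSO library, as did Nes. They met the UMI minimum through the Idoxuridine library, so the count and the median of this list depend in part on that minimum. The lower gene was Vim, vimentin, the filament protein nestin pairs with, at 401 CPM with Idoxuridine and 572 CPM with DMSO.

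Other neural genes were called in both directions. Of 8 neuroectoderm and progenitor genes with enough UMIs, 4 were higher and 1 lower. Of 13 neuronal genes 5 were higher and 4 lower. Over all genes 18.8% were higher and 4.20% lower. Of the higher genes, Cdh2, Slc1a3 and Nefm had 111, 74 and 63 UMIs in the DMSO library. They met the UMI minimum through the Idoxuridine library, so both counts depend in part on that minimum. The lists overlap with those above: Nefl, Nefm and Ina were also counted as filament genes, and Stmn2 as a microtubule gene. Under TMM scaling the progenitor list had 2 higher and 3 lower and the neuronal list 4 higher and 4 lower, beside 12.1% higher and 12.2% lower over all genes. The 8 defining neural progenitor markers together gave 2.82 CPM in the Idoxuridine library and 1.27 CPM in the DMSO library, 7 of them had a UMI with Idoxuridine and 6 with DMSO, and Fabp7 was at 0 in both. The 8 neuron markers gave 228 CPM with Idoxuridine and 535 CPM with DMSO, nearly all from Stmn2, with Dcx at 0 in both. Without Stmn2 the other 7 summed to 7.62 CPM with Idoxuridine and 2.28 CPM with DMSO, the opposite direction.

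The promoters of the 2 members called higher are shown because their levels lay in the same direction. Each window runs from 250 bases before to 50 after the RefSeq transcription start on GRCm38.p6, chr8:123411303-123411602 for Tubb3 and chr3:87970843-87971142 for Nes, both on the plus strand. Capitals mark the CCAAT box (CCAAT) and the GC box (GGGCGG) on either strand.
Tubb3: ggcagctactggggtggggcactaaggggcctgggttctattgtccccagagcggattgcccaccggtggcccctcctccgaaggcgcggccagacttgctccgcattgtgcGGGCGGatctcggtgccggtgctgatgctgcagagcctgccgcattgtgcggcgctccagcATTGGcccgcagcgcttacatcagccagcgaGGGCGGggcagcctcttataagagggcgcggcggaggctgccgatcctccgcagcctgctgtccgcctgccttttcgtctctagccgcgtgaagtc
Nes: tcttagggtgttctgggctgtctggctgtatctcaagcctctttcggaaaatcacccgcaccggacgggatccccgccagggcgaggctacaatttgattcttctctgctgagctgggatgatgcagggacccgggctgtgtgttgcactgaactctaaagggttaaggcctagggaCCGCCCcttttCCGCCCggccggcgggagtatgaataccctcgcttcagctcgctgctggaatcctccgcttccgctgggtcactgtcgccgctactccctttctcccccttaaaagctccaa
The Tubb3 window held 1 CCAAT box and 2 GC boxes, and the Nes window 0 and 2. Of all 32851 promoters of the same length, 37.4% held a CCAAT box and 35.7% a GC box, so these letters are common. Neither window held the exact TATA box letters TATAAA, found in 13.6% of promoters. Variants of those letters, such as the tataag in the Tubb3 window, were not searched. Of the E-boxes, CACGTG was in neither window and in 7.15% of promoters, and the form spelled CAGCTG was likewise in neither and in 16.3%. GC boxes were found in all 7 member promoters in the table, from 1 in Tuba1a to 2 in each of the others.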

How the data were processed

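Single-cell RNA-seq was deposited for 2 libraries of E14 cells, 1 per treatment label, made with 10x Genomics 3′ V2 chemistry per the labels. The deposited values are UMI counts per gene and cell, whole numbers that are not normalized. Per the submitters' processing notes, Cell Ranger 2, Seurat and mm10 were used. Which step each carried out, the annotation release and the choice of cells are not given in the sources used here. Every barcode in the files was taken as a cell, 2 barcodes occur in both libraries, and no doublet caller was run. The dose conflict (10 µM and 10 mM) is unresolved.

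UMIs were summed per library and scaled to 1e+06 UMIs (CPM), with exact Poisson intervals, exact conditional binomial intervals for ratios and Clopper-Pearson intervals for shares, which cover counting error only. A 3′ UMI marks 1 molecule, so levels of different genes were set side by side with no length correction. A gene was called higher or lower at a log2 ratio of at least 0.5 in size with separate intervals, among genes with 200 UMIs or more in all. That minimum counts both libraries together, so a scarce gene can meet it through the library where it is higher. Fano factors and shares of cells with a UMI are exact expectations of thinning to 23500 UMIs, which left out 94 Idoxuridine cells (12.7%) and 47 DMSO cells (5.80%), for genes with a mean of at least 0.25 UMI in both libraries. Distributions, tertiles, co-detection and correlations of log-transformed counts used 1 seeded random thinning. The scripts for calls and spread were checked on simulated counts with known answers. Tools were Python 3.11.15, numpy 2.4.6, scipy 1.17.1, pandas 2.3.3, matplotlib 3.10.9, R 4.3.3 and edgeR 4.0.16, used for TMM factors alone. Of the gene identifiers, 27645 were found in GENCODE M21.

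The members and gene lists were chosen with earlier results of these data known. The text names all members, up to 4 genes of each list by size of log2 ratio, up to 3 genes most correlated with Nes, Tubb3 and Tubb5 where r reached 0.2 in both libraries, and called or marker genes singled out after their values were seen. The coding ends of the alpha isotypes are not reported here.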

Additional observations from a re-analysis of the deposited data

How the results depend on the processing

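The counts of called members depended on the scaling and the threshold. With TMM factors or the median of ratios, 1 member was higher (Nes) and 2 were lower (Tubb2b and Tuba1b), and with a threshold of 1 log2 the counts were 1 and 0. With totals that leave out mitochondrial, ribosomal protein and Malat1 UMIs, 3 were higher, Tubb2a being added at 0.51. Without the tertile of cells highest in nuclear-retained RNA the count stayed at 2, with Tubb2a at 0.54 in place of Tubb3 at 0.49. Over all genes, 1947 were higher and 436 lower, against 1259 and 1262 with TMM, 1146 and 1551 with the median of ratios, and 4189 higher with no UMI minimum. The median log2 ratio of all genes was -0.12 with TMM and -0.16 with the median of ratios. No member's level ratio changed sign under any of the 7 alternatives, and Nes ranged over 1.31 to 1.59.

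The neural to general log2 ratio of 0.23 was 0.18 without the tertile of cells highest in nuclear-retained RNA and 0.26 with cells weighted equally. It was -0.10 with only Tubb3 and Tubb2b as neural and -0.052 among beta genes. In settings added after the data were seen, it was 0.15 without Tubb3, 0.20 without Tubb2a, 0.59 without Tubb2b and 0.021 without Tuba1a.

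On raw UMIs only 3 of the 7 tubulins had the higher Fano factor with Idoxuridine, beside 49.9% of all genes. The log2 Fano ratios were then -0.32 for Tubb2b, -0.43 for Tuba1b, -0.22 for Tubb5 and -0.14 for Tubb4b, and depth differed between the libraries in that setting. Thinning to 31000 UMIs gave -0.0012 for Tubb5 and -0.027 for Tubb4b, and leaving out the tertile highest in nuclear-retained RNA gave -0.0019 for Tubb4b. Tubb3 ranged over 0.74 to 1.40. The cause of these shifts was not tested. With 1 library per treatment, no spread between cultures is known. No paired analysis was possible because each treatment had 1 library and no result comes from a test.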

Other observations

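Cells with more than 10 Tubb3 UMIs, a limit chosen after the values were seen, were set beside the other cells of their library. In the Idoxuridine library these 68 cells averaged 17.4 Tuba1a UMIs and the other 580 cells 13.1, while Tubb2b averaged 9.18 in these cells and 9.24 in the others. Their median nuclear-retained RNA share was 0.634% and that of the other cells 0.471%. In the DMSO library the 18 such cells had a median share of 0.445% and the other 746 cells 0.310%. Tubb2b averaged 15.9 UMIs in those DMSO cells and 13.5 in the others. A Nes UMI was found in 29.4% of the Tubb3-high Idoxuridine cells and 24.7% of the others, and in 16.7% of the 18 Tubb3-high DMSO cells and 8.58% of the others.

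The defining markers of primitive endoderm and fibroblasts were scarce in both libraries. The 6 primitive endoderm markers summed to 8.44 CPM with Idoxuridine and 1.20 CPM with DMSO, and the 6 fibroblast markers to 11.6 CPM with Idoxuridine and 0.710 CPM with DMSO. All 6 fibroblast markers had a UMI in the Idoxuridine library and 4 in the DMSO library. A wider list of 12 fibroblast genes went the opposite way, at 576 CPM with Idoxuridine and 781 CPM with DMSO. Vim gave 401 CPM and 572 CPM of these sums. Of the 3 genes of that list with enough UMIs, 0 were higher and 1, Vim, was lower, beside 18.8% and 4.20% over all genes.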
